A study of Mus musculus with 12 samples.

Results

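Zfp is the mouse naming prefix for zinc finger protein genes, and the gene set described here was chosen by name and by measured level. It holds every count-table entry whose symbol is Zfp followed by digits only and whose mean over the 12 libraries reached 10 CPM, which are read counts scaled to a common library total. These were 196 genes, out of 337 Zfp entries of any level and 24384 entries that name a gene. Most proteins of this kind carry tandem C2H2 fingers, short loops in which a zinc ion is held by a pair of cysteines and a pair of histidines, and each finger can read a few bases of DNA. A large class also carries a Krüppel-associated box (KRAB) at the amino end, which recruits the co-repressor Trim28 and, through it, the histone methyltransferase Setdb1 and heterochromatin proteins. KRAB zinc finger proteins are known for silencing endogenous retroviruses and other retroelements, although other members of the Zfp name act as activators, bind RNA or have no classical finger.

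Polyadenylated RNA of mouse hippocampus was sequenced in 3 groups of 4 libraries. In the rTg4510 line, a tetracycline transactivator under a Camk2a promoter drives mutant human tau in forebrain neurons, which models tauopathy. A further group was rTg4510 mice given 3TC (lamivudine, a nucleoside drug that inhibits reverse transcriptase), and the controls were littermates. The sources used here give neither the littermates' alleles nor the ages, the dose or the duration of 3TC. By the labels each group held 2 females and 2 males, and libraries are named below by their sex letter and number. The sex letters of littermates F3 and M3 are in doubt, for the reason given with the processing. Where a level is given per library, the order is F1, F3, M2 and M3 in littermates, F2, F3, M1 and M3 in rTg4510, and F2, F3, M2 and M3 in rTg4510+3TC. These levels are CPM with library totals scaled by the trimmed mean of M-values (TMM).

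Library totals ran from 27286787 to 58173678 counts, and the 196 genes took 0.640% to 0.712% of them. The lowest count of any of them in any library was 169. How much of the spread of single genes was counting error was not tested, and it may be a large part where libraries agreed closely. The labels do not state that libraries came from separate animals, and p-values therefore reflect only the spread between these libraries, which may be technical. In 3 libraries, markers of other cell types stood apart from the rest. Marker lists were scored by averaging, over their genes, the log2 difference of a library from the mean of all 12. For rTg4510 F3 the dentate granule neuron score was -1.78, the mature oligodendrocyte score -1.06 and the striatal neuron score 1.18. In rTg4510+3TC F2 the thalamic neuron score was 1.88 and the dentate score -0.88, and in littermate M2 the oligodendrocyte score was 0.80. As a set these 3 are named below as the libraries with neighbouring-tissue markers. For littermate M2 that name does not rest on the thalamic or striatal score, which were -0.38 and -0.06. Choroid plexus markers were high in 3 other libraries, with scores of 2.84 and 2.20 in littermates F1 and F3 and of 3.12 in rTg4510 M1. Littermate F1 also had the next highest thalamic score after treated F2, at 0.81. Its striatal score was the next highest after rTg4510 F3, at 0.53, yet it is not in the set with neighbouring-tissue markers. Some scores also differed between the groups. The microglia score was -0.42, -0.39, 0.07 and -0.31 in littermates, with a range of 0.04 to 0.18 over the rTg4510 libraries and of -0.26 to 0.34 over the treated ones, and in every littermate library except M2 it lay below all 8 transgenic libraries. The dentate granule neuron score was 0.63, 0.93 and 0.70 in littermates F1, F3 and M3 and -0.07 in M2, while the highest of the 8 transgenic libraries stood at 0.41. These scores go with the comparisons against littermates below, and their part in the Zfp differences was not tested. In bulk tissue, fewer cells of a type and less RNA per cell cannot be told apart.

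The shared unit of the family is shown for 6 members described below, as 1 finger and the linker after it in the coding sequence of GENCODE M21 (GRCm38, the mm10 build), 5′ to 3′, with the codons of both cysteines and both histidines in capitals. Zfp809 (chr9:22225714-22243354, plus strand), Zfp932 (chr5:109996521-110010411, plus) and Zfp445 (chr9:122844529-122866006, minus) are KRAB proteins with known roles in silencing. Zfp30 (chr7:29783998-29794702, plus), Zfp341 (chr2:154613297-154646821, plus) and Zfp46 (chr4:136284683-136293942, plus) had among the smallest unadjusted p-values in a comparison. The last sequence is from Gm15446 (chr5:109923400-109943936, plus), a relative of Zfp932.
Zfp809: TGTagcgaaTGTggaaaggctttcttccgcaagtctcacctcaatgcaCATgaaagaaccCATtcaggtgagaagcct
Zfp932: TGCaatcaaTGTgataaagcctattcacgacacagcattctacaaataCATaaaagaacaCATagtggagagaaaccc
Zfp445: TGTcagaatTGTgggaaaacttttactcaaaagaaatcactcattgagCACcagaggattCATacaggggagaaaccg
Zfp30: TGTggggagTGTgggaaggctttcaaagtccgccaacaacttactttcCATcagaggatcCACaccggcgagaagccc
Zfp341: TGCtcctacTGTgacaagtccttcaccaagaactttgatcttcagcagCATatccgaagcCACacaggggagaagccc
Zfp46: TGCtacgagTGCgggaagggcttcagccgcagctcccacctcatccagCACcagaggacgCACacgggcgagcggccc
Gm15446: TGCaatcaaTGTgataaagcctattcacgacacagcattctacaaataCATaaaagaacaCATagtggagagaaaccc
In the stretches of the 6 members, of 78 bases each, the cysteine and histidine codons sit at the same places. The bases between them, which include those for the residues that contact DNA, differ from gene to gene among these 6. The Gm15446 stretch was chosen as the one closest to that of Zfp932, and these had 0 of 78 bases that differed.

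The 196 genes were mostly classical multi-finger proteins, with and without a KRAB box. Among the 195 genes whose coding sequence could be read (Zfp191 was not matched), the longest protein held a median of 10 C2H2 fingers, 176 genes had at least 3, and the highest number was 40, in Zfp142. Fingers of the C2H2 pattern numbered 0 in Zfp365, Zfp839, Zfp330 and Zfp703, which carry the name without the classical repeat. A KRAB A box was read where a 40-residue window matched the family consensus at 14 or more positions. By this measure 84 genes (43.1%) were KRAB genes and 111 were not. The scores peaked at 8 and at 29, with a thin tail between that held 2 genes at 12, 1 at 13, 1 at 15 and 2 at 16. Zfp37 was the lowest KRAB gene at 15 and Zfp746 the highest other gene at 13. Genes near the cutoff may be in the wrong class, since a consensus from members matched by pattern can miss a divergent box. KRAB genes had a median of 12 fingers and the others 9.

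**Figure D1:**
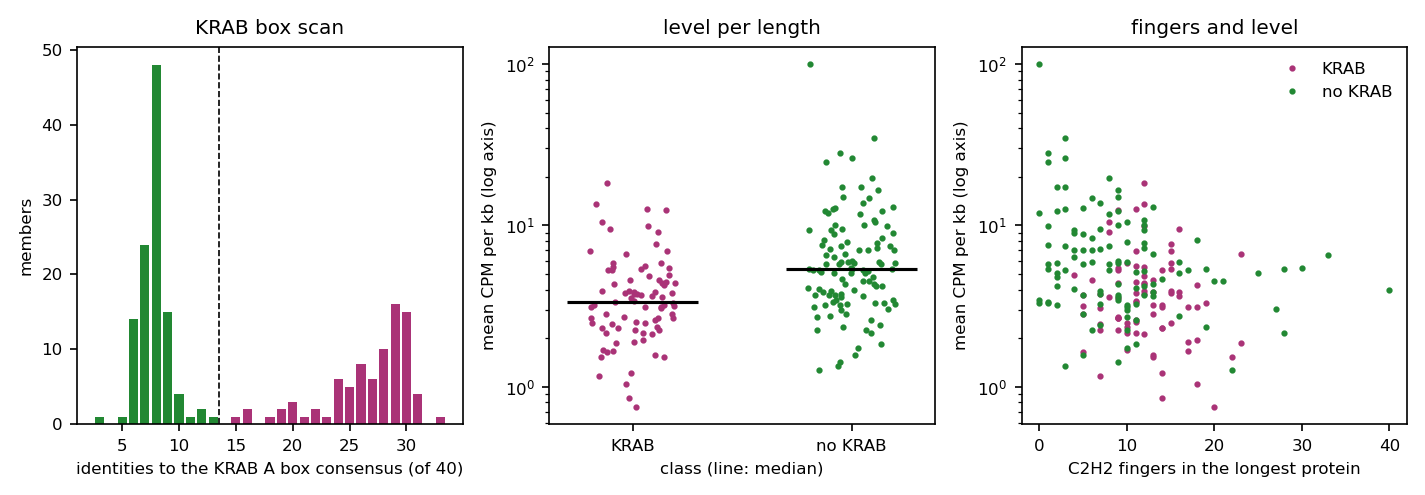
Left: number of genes by identities to the KRAB A box consensus in the best 40-residue window, with a dashed line below 14. Middle: mean CPM per kilobase of exon (log axis) of the 84 KRAB and 111 other genes, 1 point a gene, with lines at the medians of 3.37 and 5.38. Right: mean CPM per kilobase (log axis) against the number of C2H2 fingers in the longest protein, where Zfp365 stands alone at 99.8 with 0 fingers.

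KRAB genes were the less abundant class. Of 192 KRAB genes of any level under the Zfp name, 84 (43.8%) reached the level of 10 CPM, against 111 of 139 without the box (79.9%). Level per length, the CPM divided by the length of all exons together, had a median of 3.37 CPM per kilobase in the 84 KRAB genes and 5.38 in the 111 others. Both are descriptions, since the level chose the genes. On chromosome 7, which held 48 of the 196 genes, 20 were KRAB genes.

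Zfp365, which encodes a brain-enriched protein that binds Disc1, led the levels per length at 99.8 CPM per kilobase. Zfp106, an RNA-binding protein whose loss causes motor neuron degeneration in mice, followed at 34.6, and Zfp706, a small protein that limits self-renewal in mouse embryonic stem cells, at 28.1. Next came Zfp580 at 26.1, Zfp428 at 24.7, Zfp771 at 19.7, Zfp445 at 18.3, Zfp207, a microtubule-binding protein of the mitotic spindle, at 17.4, Zfp414 at 17.2 and Zfp651 at 16.5. Zfp445 was the only KRAB gene among these 10. The lowest levels per length belonged to Zfp738 (0.750), Zfp846 (0.849) and Zfp945 (1.04), all KRAB genes with long exons. As mean CPM the genes ranged from 10.1 to 516, with a median of 21.8. Just inside the threshold lay Zfp626 (10.1 CPM), Zfp93 (10.2) and Zfp711 (10.2), and just outside it Zfp760 (9.98), Zfp870 (9.87) and Zfp14 (9.66).

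No Zfp gene was called between rTg4510 and littermates, the comparison that addresses what differs in the tau line. All 196 were among the 16618 genes tested, and the smallest adjusted p of any of them was 0.945 (edgeR quasi-likelihood test, Benjamini-Hochberg over all tested genes), where 0.0301% of all tested genes were called at an adjusted p under 0.05. The DESeq2 Wald test called 0 of them too. At an unadjusted p under 0.05 edgeR had 9 Zfp genes, which is 4.59% of the 196 beside 5.24% of all tested genes, and DESeq2 had 6. Of the 9, 4 were higher and 5 lower in rTg4510, beside 2.62% higher and 2.62% lower among all tested genes. Log2 fold changes ran from -0.42 to 0.34, with 100 of 196 positive (49.8% of all tested genes were) and a median of 0.0024, beside -0.0014 over all tested genes. The 95% intervals had a median half-width of 0.27, 161 of 196 lay within 0.5 log2 units of no change, and all 196 lay within 1.

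Zfp30, a KRAB gene linked to neutrophil recruitment in mouse lung, had the smallest unadjusted p in rTg4510. Its level was 11.9, 18.4, 15.8 and 14.1 CPM in littermates and 12.2, 10.4, 9.59 and 12.6 in rTg4510. Littermate F1 lay inside the rTg4510 range, so the groups overlapped. The log2 fold change was -0.42 ± 0.14 (SE, n = 4 each), with an adjusted p of 0.945 in edgeR. In the 4 rTg4510+3TC libraries Zfp30 stood at 13.1, 12.9, 12.4 and 11.8 CPM, within the littermate range except for the last.

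Zfp532, whose human form is fused to NUTM1 in some NUT carcinomas, stood at 79.7, 78.7, 70.7 and 77.4 CPM in littermates and 68.8, 58.4, 69.5 and 62.5 in rTg4510. Every rTg4510 library lay below every littermate library, by a narrow margin, with a log2 fold change of -0.24 ± 0.09. Zfp830, a nuclear protein associated with the spliceosome, stood at 13.5, 16.5, 11.9 and 10.9 CPM in littermates, 10.6, 9.40, 8.70 and 11.3 in rTg4510 and 11.3, 14.3, 13.04 and 12.7 in rTg4510+3TC. Its difference between rTg4510 and littermates was -0.40 ± 0.15, with overlapping groups, and between rTg4510+3TC and rTg4510 it was 0.36 ± 0.15. These comparisons share the rTg4510 libraries. Zfp341, the mouse form of a human transcription factor needed for STAT3 expression, stood at 12.2, 12.7, 12.7 and 12.96 CPM in littermates, 14.4, 16.0, 18.2 and 13.3 in rTg4510 and 11.7, 11.9, 13.2 and 12.2 in rTg4510+3TC. The 4 rTg4510 libraries were the 4 highest of the 12, by 0.29 ± 0.11 over littermates, and rTg4510+3TC was -0.34 ± 0.11 against rTg4510. The adjusted p of Zfp532, Zfp830 and Zfp341 in edgeR was 0.945 against littermates. Without the 3 libraries with high choroid plexus markers, the difference from littermates was -0.12 for Zfp830 and 0.19 for Zfp341.

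In 9 Zfp genes the rTg4510 and littermate libraries did not overlap. Higher in all rTg4510 libraries were Zfp341, Zfp512, Zfp9, Zfp575 and Zfp790, 2.55% of the 196 beside 2.17% of all tested genes, and lower were Zfp35, Zfp532, Zfp932 and Zfp266, 2.04% beside 1.72%. Zfp512 stood at 45.1, 38.4, 46.5 and 47.1 CPM in littermates and 54.0, 53.1, 47.6 and 52.0 in rTg4510, a log2 fold change of 0.22 ± 0.11. Zfp575 had the highest positive value of the 196 at 0.34 ± 0.16, from 15.5, 12.2, 14.4 and 15.5 CPM to 15.6, 21.2, 18.9 and 17.2. Its groups were apart by a small margin, and its exons overlap those of Ethe1 on the opposite strand. Other values at an unadjusted p under 0.05 were 0.24 ± 0.11 for Zfp9, 0.21 ± 0.10 for Zfp790, -0.31 ± 0.14 for Zfp516, an activator of brown fat genes in mice, and -0.19 ± 0.09 for Zfp266, each with an adjusted p of 0.945 in edgeR. Zfp516 was -0.13 without the 3 libraries with high choroid plexus markers and -0.19 without littermate F3 alone, and without littermate F3 Zfp266 was -0.11. Zfp9 was 0.11 without the 3 libraries with neighbouring-tissue markers (rTg4510 F3, treated F2 and littermate M2), and 0.12 without rTg4510 F3 alone.

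**Figure D2:**
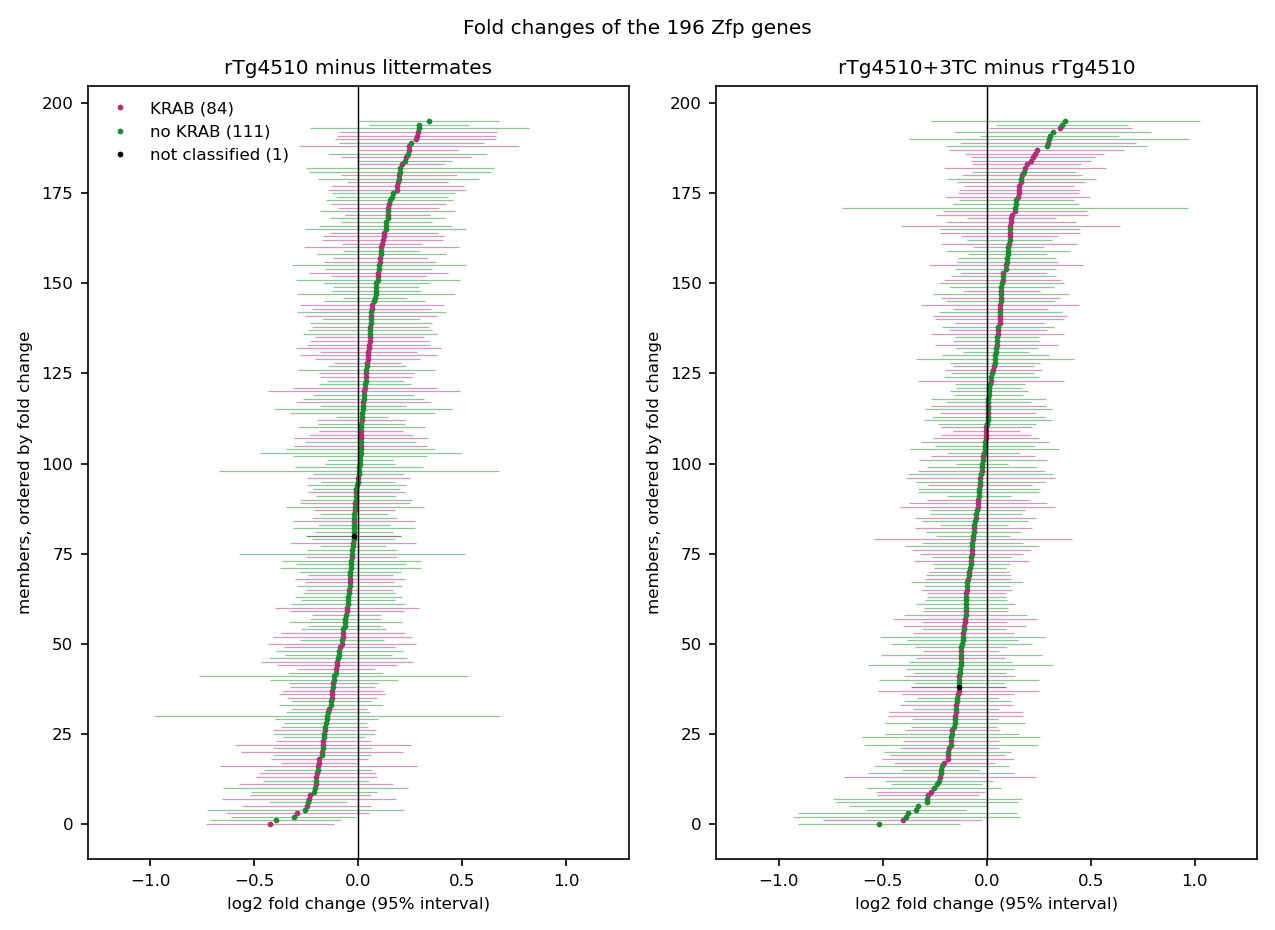
Log2 fold changes of the 196 Zfp genes (points) with 95% intervals (lines), ordered by value within each panel and coloured by KRAB class, for rTg4510 minus littermates (left) and rTg4510+3TC minus rTg4510 (right). Values run from -0.42 to 0.34 on the left and from -0.52 to 0.38 on the right, and KRAB genes are spread along the whole order.

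3TC treatment within the rTg4510 line is the comparison the series is named for, and it called no Zfp gene either. The smallest adjusted p was 0.9998 in edgeR, and of all 16618 tested genes 0% were called. DESeq2 called 0 of the 196. At an unadjusted p under 0.05 edgeR had 9 Zfp genes, which is 4.59% beside 3.82% of all tested genes, and DESeq2 had 10. Of the 9, 2 were higher and 7 lower in treated libraries, beside 1.68% higher and 2.14% lower among all tested genes. Fold changes ran from -0.52 to 0.38, 84 of 196 were positive (49.8% of all tested genes were), and the median was -0.027 beside -0.00054 over all tested genes. Without the 3 libraries with neighbouring-tissue markers the median of the 196 was 0.0007. The intervals had a median half-width of 0.27, with 157 of 196 within 0.5 log2 units of no change and 195 within 1.

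Zfp697, an RNA-binding protein described in regenerating mouse muscle, had the largest difference of the 196 under 3TC. It stood at 22.7, 31.0, 23.3 and 21.9 CPM in rTg4510 and 11.6, 18.1, 17.9 and 21.7 in rTg4510+3TC, with 22.6, 21.1, 19.5 and 27.1 in littermates. All treated libraries lay below all rTg4510 ones, while treated libraries and littermates overlapped. The extremes were rTg4510 F3 and rTg4510+3TC F2, both among the libraries with unusual marker scores. The log2 fold change was -0.52 ± 0.18 (SE, n = 4 each), with an adjusted p of 0.9998 in edgeR. Leaving out both, together with littermate M2, gave -0.24. Over the 12 libraries the SD of its log2 level was 0.35, and without those 3 it was 0.18.

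The remaining genes at an unadjusted p under 0.05 had smaller differences. Zfp579 stood at 24.5, 25.3, 27.2 and 24.2 CPM in rTg4510 and 20.2, 24.0, 21.4 and 20.1 in rTg4510+3TC, -0.24 ± 0.10, without overlap. Zfp319 stood at 29.5, 31.3, 26.2 and 26.9 against 26.5, 24.9, 23.9 and 22.5 CPM, -0.22 ± 0.09, with the groups overlapping at 1 library each. Fold changes of the 4 KRAB genes were -0.41 ± 0.18 for Zfp945, -0.27 ± 0.12 for Zfp938, 0.35 ± 0.16 for Zfp111 and -0.28 ± 0.11 for Zfp316. Leaving out the 3 libraries with neighbouring-tissue markers gave -0.20 for Zfp945 and -0.16 for Zfp316, and without rTg4510 F3 alone that of Zfp945 was -0.23. The groups did not overlap in 5 Zfp genes, with Zfp830 higher (0.51% beside 1.25% of all tested genes) and Zfp938, Zfp341, Zfp697 and Zfp579 lower in treated libraries (2.04% beside 1.21%).

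**Figure D3:**
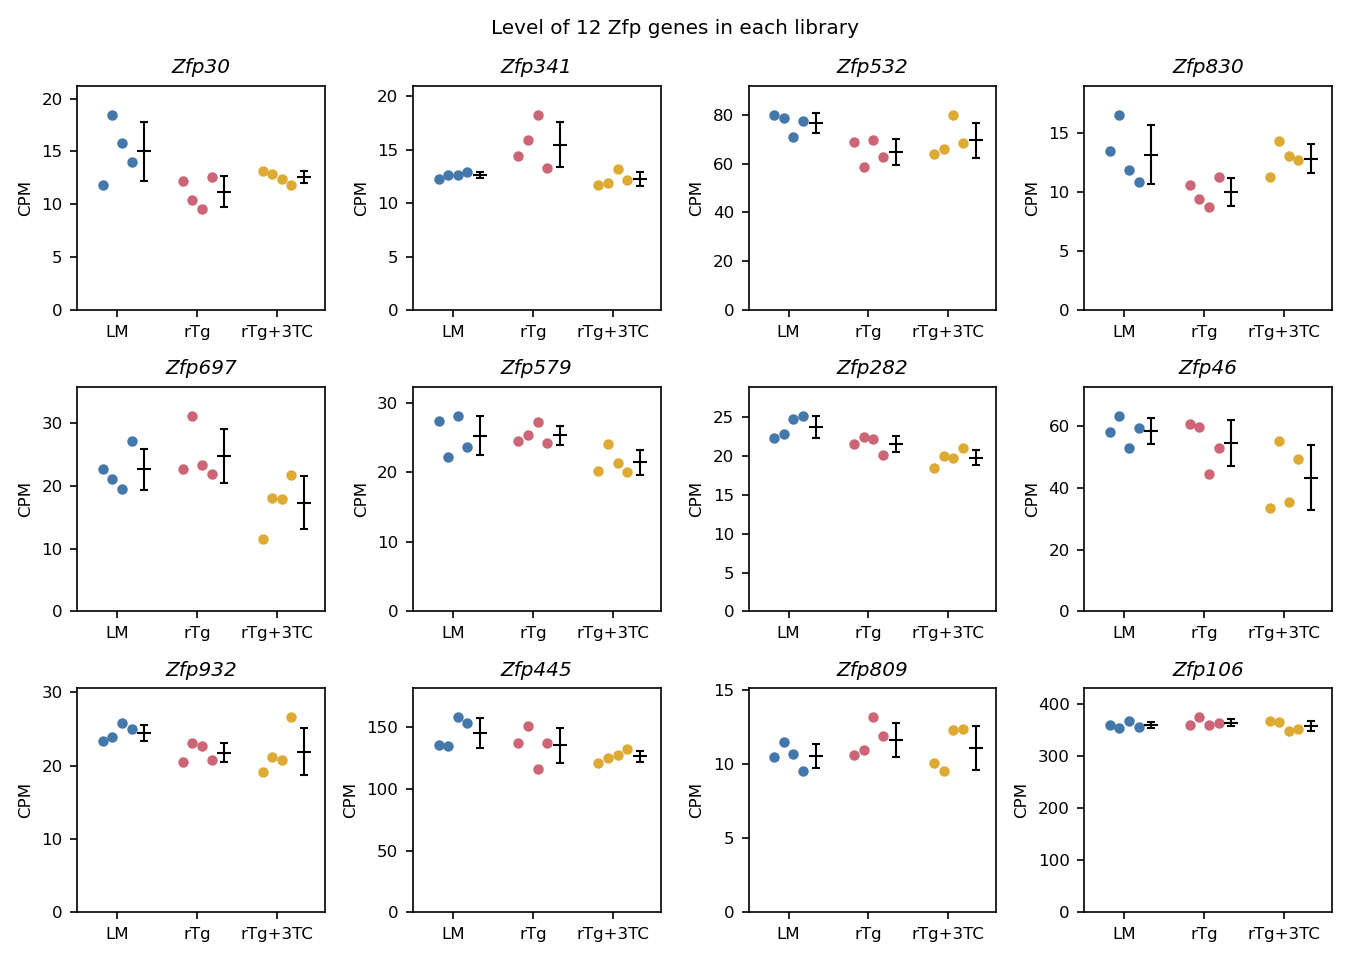
Level of 12 Zfp genes in CPM (TMM-scaled totals), 1 point a library, in littermates (LM), rTg4510 (rTg) and rTg4510+3TC, with bars for mean and SD (n = 4 each). The 4 rTg4510 libraries of Zfp341 lie at 13.3 to 18.2 CPM, above the other 8, while Zfp106 stays between 349 and 375 in all 12.

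Treated rTg4510 libraries were also set against littermates, and there 12 Zfp genes were lower at an unadjusted p under 0.05 and none was called. This comparison shares both of its groups with the others and is no independent check of them. The smallest adjusted p was 0.415 in edgeR, where 0.0481% of all tested genes were called, and DESeq2 called 0 of the 196. At an unadjusted p under 0.05 edgeR had 13 Zfp genes, 1 higher and 12 lower, which is 6.63% beside 8.59% of all tested genes, and DESeq2 had 14. Among all tested genes 4.28% were higher and 4.31% lower by this measure. The median of the 196 was -0.037, beside -0.0040 over all tested genes, and 83 were positive, where 49.1% of all tested genes were.

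Zfp282, a KRAB protein whose human form represses the promoter of a human T cell leukaemia virus, had the smallest p there. It stood at 22.3, 22.8, 24.7 and 25.1 CPM in littermates, 21.5, 22.4, 22.1 and 20.1 in rTg4510 and 18.5, 19.95, 19.7 and 21.0 in rTg4510+3TC. Treated libraries all lay below littermates, and rTg4510 libraries overlapped with both. The log2 fold change of treated libraries against littermates was -0.26 ± 0.08, with an adjusted p of 0.415 in edgeR. Zfp46 stood at 57.9, 63.1, 52.8 and 59.4 CPM in littermates, 60.6, 59.8, 44.5 and 53.0 in rTg4510 and 33.5, 55.0, 35.3 and 49.4 in rTg4510+3TC. Treated libraries F2 and M2 were the lowest of the 12, while F3 and M3 lay among or near the others, and the fold change against littermates was -0.43 ± 0.15, the lowest of the 196. Zfp523, whose human form is ZNF76, a relative of the general activator ZNF143, stood at 119.9, 133, 143 and 132 CPM in littermates and 92.1, 111, 124 and 115 in treated libraries, -0.26 ± 0.09 with overlap. The value for Zfp523 was -0.14 without the 3 libraries with neighbouring-tissue markers.

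Zfp711, an X-linked gene whose human form is mutated in some families with intellectual disability, was the only Zfp gene higher at an unadjusted p under 0.05 in treated libraries. It stood at 9.68, 8.54, 9.54 and 9.21 CPM in littermates and 11.8, 11.2, 10.04 and 11.98 in treated libraries, without overlap, a difference of 0.28 ± 0.13 with an adjusted p of 0.572 in edgeR. The groups did not overlap in that gene (0.51% of the 196 beside 2.95% of all tested genes) and, on the lower side, in Zfp287, Zfp35, Zfp362, Zfp664, Zfp282, Zfp574, Zfp319 and Zfp445 (4.08% beside 2.91%). Other log2 fold changes at an unadjusted p under 0.05 were -0.27 ± 0.09 for Zfp646, -0.23 ± 0.09 for Zfp664, -0.29 ± 0.11 for Zfp651, -0.27 ± 0.11 for Zfp35, -0.24 ± 0.10 for Zfp950, -0.24 ± 0.10 for Zfp579, -0.28 ± 0.12 for Zfp821 and -0.26 ± 0.12 for Zfp362. The adjusted p of these 8 in edgeR was 0.441 or more. Without the 3 libraries with neighbouring-tissue markers the value was -0.09 for Zfp651, -0.14 for Zfp664 and -0.17 for Zfp821, and without littermate M2 alone that of Zfp651 was -0.16.

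With both transgenic groups averaged against littermates, 0 Zfp genes were called (smallest adjusted p 0.538 in edgeR, with 0.0481% of all tested genes called), and DESeq2 called 0. At an unadjusted p under 0.05 edgeR had 10 Zfp genes, 5.1% beside 8% of all tested genes, and DESeq2 had 10. Of the 10 in edgeR, 1 was higher and 9 were lower, beside 3.86% higher and 4.13% lower among all tested genes. Fold changes ran from -0.34 to 0.32, and 91 were positive, where 48.6% of all tested genes were. Zfp35 was the only one whose 8 transgenic libraries all lay below the 4 littermates (0.51% beside 0.511% of all tested genes), and none lay above (0.794% of all tested genes). It stood at 18.3, 17.9, 17.4 and 17.7 CPM in littermates, 12.96, 17.4, 15.8 and 17.2 in rTg4510 and 14.2, 16.4, 14.8 and 13.6 in rTg4510+3TC. The littermates agreed closely and the highest transgenic library lay just under them, for a log2 fold change of -0.22 ± 0.09.

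Of 4 KRAB genes listed for binding retroelements in mouse, 3 were among the 196 (Zfp809, Zfp932 and Zfp961), and Zfp708 averaged 3.42 CPM. None of the 3 was called in any comparison, where 0% to 0.0481% of all tested genes were. An unadjusted p under 0.05 did not occur in them in any of the 4 comparisons (3.82% to 8.59% of all tested genes), and their values ran from -0.17 to 0.15 in rTg4510 against littermates and from -0.07 to 0.11 under 3TC. Zfp809, which recognises the proline primer binding site of Moloney leukaemia virus and silences proviruses, stood at 10.5, 11.5, 10.7 and 9.54 CPM in littermates, 10.6, 10.9, 13.2 and 11.9 in rTg4510 and 10.1, 9.55, 12.3 and 12.4 in rTg4510+3TC. All 3 groups overlapped. The log2 fold change was 0.15 ± 0.13 in rTg4510 against littermates (95% interval -0.13 to 0.42) and -0.07 ± 0.13 under 3TC (-0.35 to 0.20). Over the libraries left out 1 at a time the lowest value of the first was 0.08 (without rTg4510 M1), and the second was -0.01 without treated F3. Zfp961, reported to bind retroviral primer binding sites, averaged 10.7 ± 1.52 CPM in littermates, 11.04 ± 1.95 in rTg4510 and 11.9 ± 1.09 in rTg4510+3TC (SD, n = 4 each).

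Zfp932, which with its relative Gm15446 binds endogenous retroviruses of the ERVK class, stood at 23.4, 23.8, 25.8 and 25.01 CPM in littermates, 20.6, 23.1, 22.7 and 20.8 in rTg4510 and 19.2, 21.2, 20.7 and 26.6 in rTg4510+3TC. All rTg4510 libraries were below all littermates, and treated M3 was the highest of the 12. The log2 fold change was -0.17 ± 0.11 in rTg4510 against littermates (95% interval -0.40 to 0.06), and under 3TC it was 0.01 ± 0.11 (-0.22 to 0.24). Without treated M3 the value under 3TC was -0.10, and it was 0.10 when the 3 libraries with neighbouring-tissue markers were left out. Zfp932 shares 37.0% of its 50-base exon sequences with other genes, mainly Gm15446, and the identical finger printed above is one such stretch, so its counts are uncertain. Gm15446 had 136 to 327 counts a library against 606 to 1351 for Zfp932, and averaged 5.64 ± 0.51 CPM in littermates, 4.50 ± 0.67 in rTg4510 and 5.96 ± 1.49 in rTg4510+3TC (SD, n = 4 each).

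Zfp445, which with Zfp57 keeps parental imprints in mouse embryos, stood at 135, 135, 158 and 153 CPM in littermates, 137, 151, 116 and 137 in rTg4510 and 121, 125, 127 and 132 in rTg4510+3TC. Every treated library was below every littermate, and rTg4510 spanned both. Its log2 fold changes were -0.11 ± 0.09 in rTg4510 against littermates, -0.10 ± 0.09 under 3TC and -0.20 ± 0.09 in treated libraries against littermates, with an adjusted p of 0.547 in edgeR for the last. With the replicate code as a block the first was -0.03, the second was -0.02 without the 3 libraries with neighbouring-tissue markers, and the last was -0.30 without the 3 with high choroid plexus markers. Zfp57 and Zfp568, the other imprinting and developmental KRAB genes listed, were below the threshold at 9.54 and 4.25 CPM.

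Other role groups showed no called gene in any comparison. Of 9 genes listed for RNA binding, mRNA decay or ribosome quality control, 7 were above the threshold, 2 of them were positive in rTg4510 against littermates, and their values ran from -0.19 to 0.08. Zfp598, which senses collided ribosomes, averaged 50.5 ± 5.22 CPM in littermates, 49.1 ± 4.86 in rTg4510 and 44.0 ± 2.48 in rTg4510+3TC (SD, n = 4 each), with overlapping groups. Of 10 listed neural development factors 8 were above the threshold, with values from -0.15 to 0.10 in rTg4510 against littermates and from -0.39 to 0.38 under 3TC. The ends under 3TC were Zfp365 and Zfp423, whose levels by library are given below. Zfp365 was at 0.02 and Zfp423 at -0.09 when the 3 libraries with neighbouring-tissue markers were left out, 2 of which (rTg4510 F3 and treated F2) enter this comparison. Of 13 listed general transcription and chromatin factors 11 were above it, 7 positive in rTg4510 against littermates (median 0.01) and 6 under 3TC (median 0.04). An unadjusted p under 0.05 occurred in 0 of the genes of these 3 groups in each of the 4 comparisons, beside 3.82% to 8.59% of all tested genes.

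The medians of the KRAB genes and of the others lay within 0.05 log2 units of 0 in all 4 comparisons. In rTg4510 against littermates the median log2 fold change was 0.01 in the 84 KRAB genes and -0.01 in the 111 others, with 46 and 54 positive. Under 3TC it was -0.0034 and -0.039, with 40 and 44 positive. In treated libraries against littermates it was 0.01 and -0.05, with 44 and 39 positive, and in both transgenic groups against littermates 0.01 and -0.02, with 44 and 47 positive. An unadjusted p under 0.05 occurred in 4 KRAB and 5 other genes both in rTg4510 against littermates (5.24% of all tested genes) and under 3TC (3.82%). It occurred in 3 KRAB and 10 other genes in treated libraries against littermates (8.59%) and in 2 and 8 in both transgenic groups against littermates (8%). Differences between the classes were not tested. As a level per library, the mean log2 deviation of the 84 KRAB genes from their own averages lay between -0.02 and 0.03 in littermates, -0.02 and 0.02 in rTg4510 and -0.07 and 0.09 in rTg4510+3TC. Treated F3 gave the lowest and treated M3 the highest value, and the littermate and rTg4510 ranges lay inside the treated one. The same value of the 111 other genes lay between 0.0025 and 0.035 in littermates, -0.016 and 0.049 in rTg4510 and -0.045 and -0.0094 in rTg4510+3TC. All treated libraries lay below all littermates by this value, and rTg4510 overlapped with both.

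Zfp106 was one of the steadiest transcripts measured. It stood at 360.4, 355, 369 and 357 CPM in littermates, 360.1, 375, 360.5 and 363 in rTg4510 and 368, 366, 349 and 352 in rTg4510+3TC. The highest library was 1.07 times the lowest, and the SD of its log2 level over the 12 libraries was 0.03, the second lowest of 10160 genes with a mean of 10 CPM or more. The median SD was 0.17 for the 196 and 0.17 for all genes of that level. Zfp706 was also even, at 145, 144, 132 and 153 CPM in littermates, 146, 127, 141 and 137 in rTg4510 and 127, 145, 135 and 148 in rTg4510+3TC.

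The most variable Zfp genes differed widely between libraries of the same group. Zfp189, a transcription factor linked to stress resilience in mouse prefrontal cortex, stood at 17.1, 15.8, 7.32 and 22.7 CPM in littermates, 17.2, 4.82, 15.9 and 18.9 in rTg4510 and 10.3, 17.5, 17.6 and 17.1 in rTg4510+3TC. In each group 1 library was far below the others, and these 3 were the libraries with unusual marker scores. The SD of its log2 level was 0.65 over the 12 libraries, the highest of the 196, and 0.16 without those 3. Zfp365 stood at 461, 506, 833 and 484 CPM in littermates, 456, 830.1, 449 and 502 in rTg4510 and 281, 412, 463 and 555 in rTg4510+3TC. The same 3 libraries were its highest, its next highest and its lowest, and its SD fell from 0.42 to 0.12 without them. Zfp367 reached 34.9 CPM in rTg4510 F3 and 21.7 in littermate M2 against 14.4 to 17.6 in the other 10, with an SD of 0.36 and of 0.10 without the 3 libraries.

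Zfp608, a repressor of the recombinase genes in mouse thymocytes, was lowest in the same libraries of the untreated groups, at 26.4 CPM in rTg4510 F3 and 32.8 in littermate M2, with 43.2 to 63.0 in the other 10. The KRAB gene Zfp941 was highest in rTg4510+3TC F2 at 40.5 CPM and rTg4510 F3 at 39.1, with 17.6 to 25.7 elsewhere. Zfp831 was lowest in rTg4510+3TC F2 at 24.3 CPM and littermate M2 at 25.3, with 38.6 to 52.1 elsewhere. SDs of the log2 level without the 3 libraries were 0.19 for Zfp608, 0.16 for Zfp941 and 0.14 for Zfp831, from 0.37, 0.38 and 0.35 with them. The part of tissue composition in these levels was not tested beyond the marker scores given above.

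Zfp423 and Zfp521, related multi-finger factors that act in neural development, varied in a different way. Each had 28 fingers by the C2H2 pattern, which can miss divergent ones. Zfp423 stood at 38.6, 22.6, 21.4 and 32.6 CPM in littermates, 26.2, 18.6, 40.4 and 21.1 in rTg4510 and 55.8, 31.4, 24.0 and 27.005 in rTg4510+3TC. Zfp521 stood at 15.4, 11.7, 15.4 and 13.3, then 11.7, 11.2, 22.3 and 10.7, then 28.3, 18.9, 11.4 and 10.2 CPM in the same order. Both were highest in rTg4510+3TC F2, the library with the thalamic score of 1.88, and next highest in rTg4510 M1, the library with the choroid plexus score of 3.12. Without the 3 libraries their SDs stayed high, at 0.33 from 0.46 and 0.39 from 0.47. The KRAB gene Zfp160 ranged from 7.78 CPM in treated F3 to 18.3 in littermate M2, with an SD of 0.35 and of 0.37 without the 3 libraries.

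**Figure D4:**
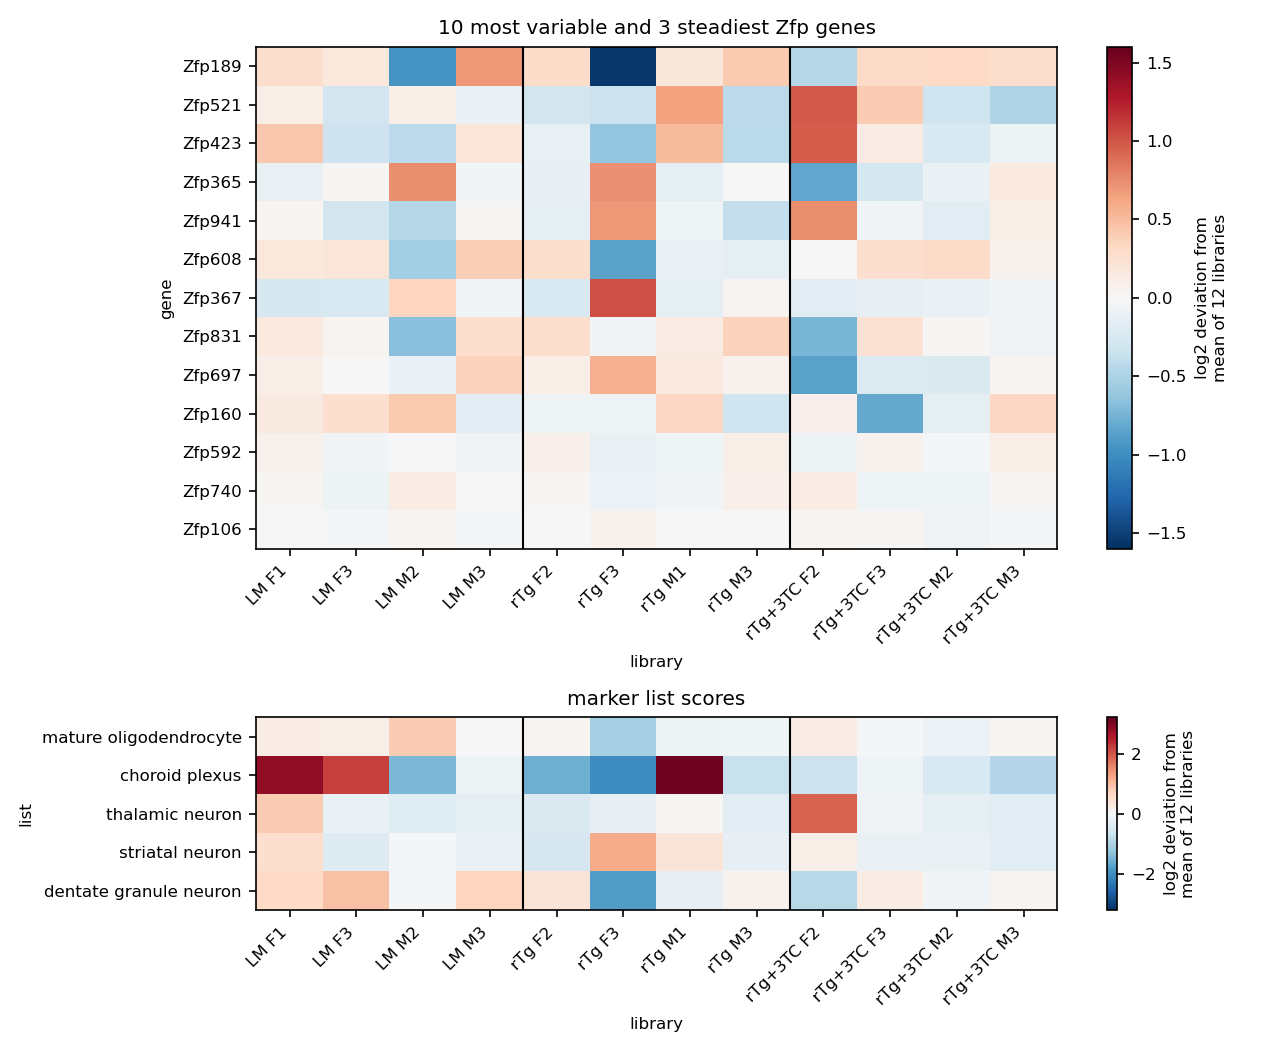
Top: log2 deviation of each library's level from the gene's mean over 12 libraries, for the 10 Zfp genes with the highest SD and the 3 with the lowest. Bottom: marker list scores of the same libraries on their own colour scale (LM, littermate; rTg, rTg4510). Zfp189, Zfp365, Zfp941, Zfp608, Zfp367, Zfp831 and Zfp697 depart mostly in LM M2, rTg F3 and rTg+3TC F2, the libraries whose scores reach 0.80 for oligodendrocytes, -1.78 for dentate neurons and 1.88 for thalamic neurons.

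Neighbouring Zfp genes had mixed signs in most clusters. There were 13 clusters of at least 3 of the 196 genes with gaps of at most 500 kb, which together held 70 genes. In the KRAB cluster at chr13:67515781-67729173 (Zfp87, Zfp748, Zfp738 and Zfp65) all 4 genes were positive by 0.04 to 0.29 in rTg4510 against littermates and by 0.05 to 0.11 under 3TC. None had an unadjusted p under 0.05. Both comparisons use the rTg4510 libraries, and the positive signs in the remaining comparisons follow from these. The cluster was picked from the 13 after its values were seen. At chr7:12478293-12974236 (Zfp606, Zfp329, Zfp110 and Zfp324) all 4 were negative in rTg4510 against littermates (-0.20 to -0.07) and positive under 3TC (0.01 to 0.29), comparisons that share the rTg4510 libraries. In the cluster of 9 genes at chr7:29768552-30169750, Zfp30 at -0.42 ± 0.14 and its neighbour Zfp790 at 0.21 ± 0.10 had opposite signs in rTg4510 against littermates. Zfp386, at chr12:116047724-116063360, lies beside the stretch of distal chromosome 12 where the transactivator transgene of this line is inserted. It stood at 20.6, 17.4, 17.6 and 20.3 CPM in littermates, 25.4, 22.4, 17.3 and 17.3 in rTg4510 and 17.9, 20.3, 18.9 and 22.2 in rTg4510+3TC, with overlapping groups and a log2 fold change of 0.12 ± 0.14 in rTg4510 against littermates. Without rTg4510 F2 the value was -0.0071, while it was 0.04 without the 3 libraries with neighbouring-tissue markers and 0.20 without the 3 with high choroid plexus markers.

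The partners through which KRAB proteins act were not called either. Of 19 listed co-repressor and heterochromatin genes, 0 were called in any of the 4 comparisons by edgeR, beside 0% to 0.0481% of all tested genes. An unadjusted p under 0.05 occurred in 1 of the 19 in rTg4510 against littermates (5.24% of all tested genes), in 0 under 3TC (3.82%), in 2 in treated libraries against littermates (8.59%) and in 2 in both transgenic groups against littermates (8%). Trim28, the scaffold that KRAB domains bind, averaged 130.1 ± 6.29 CPM in littermates, 133 ± 7.48 in rTg4510 and 126 ± 10.4 in rTg4510+3TC. Setdb1 averaged 49.1 ± 3.21, 47.9 ± 2.39 and 44.4 ± 3.57 CPM. Hdac1, a histone deacetylase, had the 1 unadjusted p under 0.05 in rTg4510 against littermates. Its level was 32.4 ± 3.31 CPM in littermates, 25.7 ± 3.34 in rTg4510 and 27.2 ± 4.06 in rTg4510+3TC. For Trim28, Setdb1 and Hdac1 the CPM values are given with the SD (n = 4 each). The log2 fold change of Hdac1 in rTg4510 against littermates was -0.33 ± 0.13 (SE), with an adjusted p of 0.945 in edgeR.

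Some counts cannot be assigned to 1 gene with certainty. The strand setting of the counting is not given in the sources used here, and 56 of the 196 genes share exon positions with a gene on the opposite strand, among them Zfp106, Zfp319, Zfp341, Zfp367, Zfp523, Zfp532, Zfp575, Zfp608, Zfp646, Zfp651, Zfp697 and Zfp706. A further overlap with exons of the same strand was found for 13. Shared 50-base exon sequences made up over 20% of 4 genes, namely Zfp932 at 37.0%, Zfp617 at 41.5%, Zfp414 at 26.3% and Zfp93 at 20.8%, and 0% of 91 genes.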

How the data were processed

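Per the labels' protocols, hippocampal RNA was purified with Trizol on spin columns, and 12 polyA libraries were prepared with an Illumina TruSeq kit. The authors deposited 1 table of unnormalised read counts with 24411 entries. STAR, DESeq2 and mm10 are named in the submitters' processing notes without versions or roles. The annotation, the strand setting and any filters were not given in the sources used here. Library totals, which set the counting precision, were 27286787 to 58173678.

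The 27 entries that carry dates in place of symbols (0.285% to 0.363% of counts) were left out of normalisation and tests, and the CPM that chose the genes used the column totals of the table. All 12 libraries were fitted by group in edgeR 4.0.16 (R 4.3.3, limma 3.58.1) after TMM scaling and filterByExpr (minimum count 10, minimum total 15), and quasi-likelihood tests of the contrasts were adjusted by Benjamini-Hochberg over 16618 genes, called at an adjusted p under 0.05. The common dispersion was 0.0817, with 9 residual degrees of freedom. The procedure was tested on simulated data that held no tissue differences between libraries. The outcome of that test is not reported here and is not used to back the results. Sex was kept out of the model because sex-linked counts of 2 littermate libraries, F3 and M3, were reported to go against their labels. Positions, exon lengths, coding sequences, finger counts and KRAB boxes came from GENCODE M21 (GRCm38), matched by symbol. Fingers were counted by the C2H2 pattern. The KRAB consensus came from 71 members matched by pattern.

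The genes, lists, naming rule and tests were chosen with earlier results of these data known. The genes named are the 10 of each direction with the smallest p in a contrast, the 10 with the highest level per length, 3 on each side of the threshold and members of role lists. Some of the named genes are given only within counts and ranges, and others, chosen after their values were seen, are the most and least variable genes, those in chromosome clusters, those whose groups did not overlap and Zfp386. Alternatives were DESeq2 size factors, the DESeq2 1.42.0 test, other filters, sex terms, the replicate code as a block, the libraries of a contrast alone, other thresholds and leaving out libraries.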

Additional observations from a re-analysis of the deposited data

Results flagged for a closer look

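Levels of the Zfp genes whose values are given by library were screened for a library far from the other 3 of its group, where its gap to the nearest one took nearly all of the group's range (Dixon's 95% critical value). Of 90 groups screened 6 had such a library, and several of the genes screened were chosen for variable values. Chance alone flags about 1 in 20 (5%) of groups of genes not chosen in this way, so that rate cannot be set against the 6. Zfp365 stood at 833.1 CPM in littermate M2, with 461.3 to 505.7 in the other littermates, and at 830.1 CPM in rTg4510 F3, with 449.4 to 501.6 in the other rTg4510 libraries. In rTg4510 F3, Zfp697 stood at 31.03 CPM (21.91 to 23.34 in the others) and Zfp367 at 34.91 CPM (14.45 to 17.63 in the others). Zfp189 stood at 10.27 CPM in rTg4510+3TC F2, with 17.15 to 17.59 in the others, and Zfp521 at 22.3 CPM in rTg4510 M1, with 10.7 to 11.67 in the others. The marker scores of these libraries are given with the results, and their part in these levels was not tested.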

How the results depend on the processing

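Under every alternative run, 0 Zfp genes were called in each of the 4 comparisons. The smallest adjusted p over the settings was 0.426 in rTg4510 against littermates, 0.879 under 3TC, 0.218 in treated libraries against littermates and 0.245 in both transgenic groups against littermates. The number of all genes called was less stable. In rTg4510 against littermates it was 5, and it was 23 with DESeq2, 36 without the 3 libraries with neighbouring-tissue markers, 0 without the 3 libraries high in Ttr and 0 with the replicate block. Under 3TC it was 0, and 1 with DESeq2. In treated libraries against littermates it was 8, and 98, 71, 0 and 0 in the same 4 settings, and in both transgenic groups against littermates it was 8, and 85, 108, 0 and 0. Leaving out 1 library at a time gave 4 to 9, 0 to 0, 6 to 16 and 5 to 18 genes called in the 4 comparisons in the same order, and medians of the Zfp genes of -0.0143 to 0.01, -0.0584 to -0.0188, -0.0585 to -0.0203 and -0.0437 to 0.0044. The causes were not tested. Since 0 Zfp genes were called in any setting, values recomputed for the 53 fold changes of Zfp genes named could differ only in sign or size. Some settings left out a library outside the comparison and could move a value little. Sizes moved more than signs. Zfp651 in both transgenic groups against littermates went from -0.23 to -0.08 without the 3 libraries with neighbouring-tissue markers. Of the 1156 values, 1150 kept their sign. The exceptions, which changed sign, were Zfp932 under 3TC, at -0.0185 without rTg4510 F2, -0.0134 without rTg4510 M3 and -0.102 without rTg4510+3TC M3 (-0.102 to 0.0661 over the libraries left out), and Zfp386 in rTg4510 against littermates, at -0.0071 without rTg4510 F2 (-0.0071 to 0.1899). Without the 3 libraries with neighbouring-tissue markers, Zfp365 under 3TC was 0.0232 (-0.5406 to -0.1331 over single libraries left out) and Zfp423 -0.0909 (0.0468 to 0.6431). Deviations of libraries with the same code in different groups correlated at -0.243 to 0.166, and those with different codes at -0.369 to 0.524. The highest was between rTg4510 F3 and littermate M2. Both are in the set with neighbouring-tissue markers, a name that for littermate M2 does not rest on the thalamic or striatal score. What these libraries share was not tested. Whether the codes pair the libraries cannot be told from these values. For both transgenic groups against littermates, using the libraries of the contrast alone is the same fit. The SDs without 3 libraries were chosen after seeing the data. With 4 libraries a group, the median half-width of the 95% intervals was 0.23 to 0.27 log2 units, so smaller changes were mostly not detectable. These intervals are for single genes, while a call required an adjusted p under 0.05 over all tested genes. Larger changes could therefore go uncalled too. Zfp697 at -0.52 under 3TC had an adjusted p of 0.9998 in edgeR. Zfp30 at -0.42 in rTg4510 against littermates had an adjusted p of 0.945 in edgeR.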
